A study of Mus musculus with 7 samples.

Results

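Interleukin 10 and the genes that define a regulatory type of innate lymphoid cell were followed in type 2 innate lymphoid cells (ILC2s) sorted from mouse hearts. The 9 genes were chosen by symbol: the secreted factors Il10, Tgfb1 and Ebi3, the cell-surface enzymes Entpd1 and Nt5e, and the transcription factors Prdm1, Maf, Id3 and Foxp3. All 9 were found among the 55335 gene identifiers of the count and FPKM tables, and 8 of them (all but Foxp3) passed the filter on low counts. The 7 libraries were 3 of naive hearts and 4 of BALB/c hearts grafted into C57BL/6 recipients, a model of acute rejection. The grafts were taken on day 7. The labels give no genotype, no strain for the naive hearts and no sex, and they print the day 7 time on the naive samples too. Each library was made from the pooled cells of several hearts, sorted as CD45+, lineage-negative and ST2+. The labels call the libraries biological replicates, so p-values measure the spread between pools and not between animals. The comparison asks how ILC2s inside a rejecting graft differ in their transcripts from ILC2s of the untouched heart. No graft between mice of the same strain is among the libraries, so effects of rejection and of grafting itself cannot be told apart.

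ILC2s are lymphocytes without antigen receptors that respond to interleukin 33 through ST2 and depend on the transcription factor GATA3. They are best known for making interleukin 5 and interleukin 13, and under some stimuli a fraction of them makes interleukin 10, a cytokine that restrains antigen-presenting cells and T cells. Other means of restraint share the list: transforming growth factor beta, cytokines built on the EBI3 chain, and adenosine, which CD39 (Entpd1) and CD73 (Nt5e) make from extracellular ATP in successive steps. BLIMP-1 (Prdm1) and c-MAF (Maf) bind and promote Il10 in several lymphocyte types, ID3 marks regulatory innate lymphoid cells of the gut, and FOXP3 defines regulatory T cells.

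Total counts lay between 29107326 and 53044907 per library, and a count of 0 allowed for up to 3 counts, or 0.0566 to 0.103 CPM (counts scaled to the library total) depending on the library. These floors cover counting error only, since the amplified cDNA carried no molecular identifiers. Naive replicate 2 stood apart from the others. Its summed level of 12 ILC2 marker genes was 1160 CPM, against 12700 and 15200 in naive replicates 1 and 3 and 11900 to 12800 in the allografts. Its summed level of 10 kidney tubule genes was 10500 CPM, against 69.8 to 305 in the other 6 libraries, and mitochondrial transcripts took 26.5% of its counts against 2.04% to 3.11% elsewhere. The results for the 9 genes are therefore given with and without this library. Of 12 ILC2 markers, 11 were detected in naive replicate 2 and 12 in each of the others. The 6 cardiomyocyte genes summed to at most 9.22 CPM in any library. Tnnt2 and Myl2 had no count in any of them, Actc1 had counts in 3 allografts alone, and Tnni3 had counts in 2 naive and 3 allograft libraries.

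None of the 8 tested genes differed between allograft and naive ILC2s in edgeR's quasi-likelihood test with Benjamini-Hochberg adjustment at 0.05. Across all 17015 genes tested, 0.0353% passed (6 genes). At an unadjusted p under 0.05 the test picked 1 of the 8, Ebi3, where 10.3% of all genes were picked. DESeq2 also called 0, with 1, again Ebi3, at an unadjusted p under 0.05 (16.8% of all genes), of the 6 genes for which it gave a p-value. Its adjusted calls were 6.66% of all genes. The fold changes pointed up for 6 genes and down for 2, with a median log2 fold change of 0.34 against -0.01 for all genes. Without naive replicate 2 that median was 0.21 against 0.23 for all genes, and again 0 of the 8 were called, where 3.1% of all genes were. For 2 of the 8 genes, Il10 and Ebi3, the lowest allograft was above the highest naive library, which held for 12.5% of all tested genes. Of all tested genes, 2.15% had every allograft library below every naive one, with 0 of the 8 among them. Because these are bulk libraries, fewer cells expressing a gene and less of its RNA per cell cannot be told apart.

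**Figure D1:**
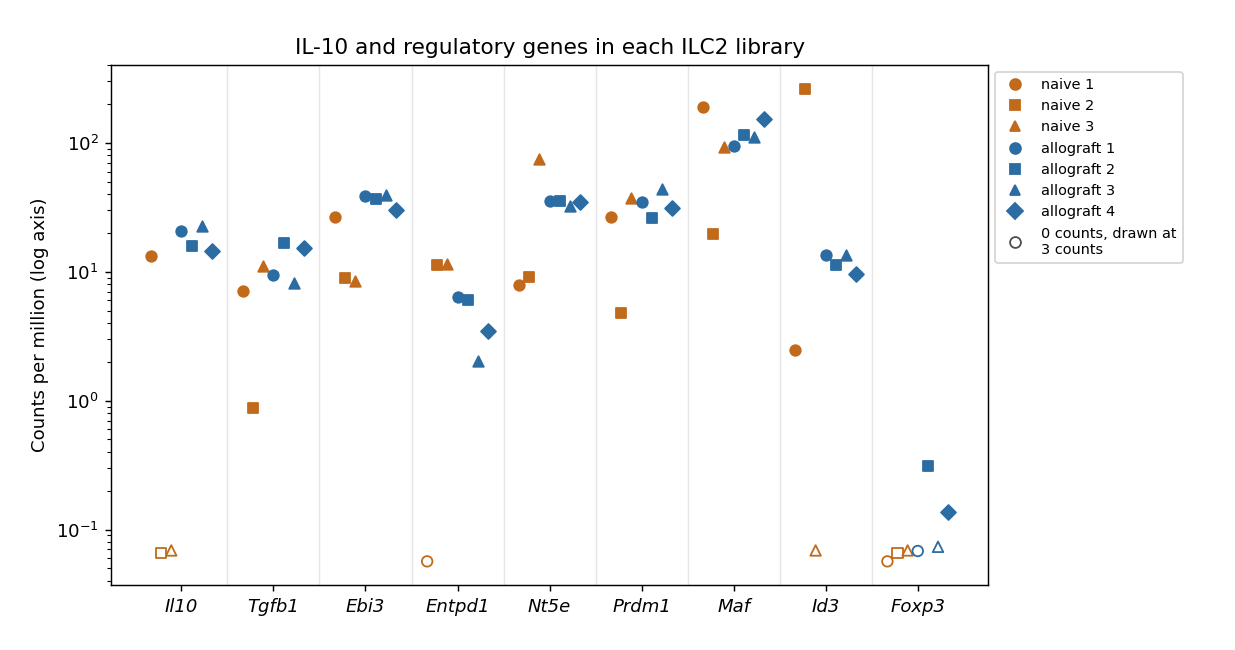
CPM (log axis) of the 9 genes, 1 symbol per library, with naive libraries and allograft libraries in different colours and open symbols for 0 counts drawn at the level of 3 counts. The 4 allograft libraries lie close together for most genes, while the 3 naive libraries spread widely: Il10 has counts in 1 of them and Id3 reaches 264 CPM in naive replicate 2.

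Il10 encodes interleukin 10 itself and lies on chr1:131019845-131024974, plus strand, of mm10. It was present in all 4 allografts, at 20.6, 15.9, 22.7 and 14.6 CPM in replicates 1 to 4. Among naive libraries it was present in replicate 1 at 13.2 CPM, and had a count of 0 in replicates 2 and 3. The allografts thus lay above every naive library, but naive replicate 1 was nearer to the lowest allograft than to the other naive libraries. The naive mean was 4.40 ± 7.62 CPM (SD, n = 3), against 18.5 ± 3.84 CPM (SD, n = 4) for the allografts. The log2 fold change was 2.08 (SE 2.15), with an edgeR adjusted p of 0.840. Without naive replicate 2 it was 1.47 (SE 1.83, edgeR adjusted p 0.731).

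A single naive library decided this result. Without naive replicate 1 the remaining naive libraries both had 0 counts of Il10, so that the allograft level was at least 274-fold higher (floor of 3 counts per library, averaged over the 2 libraries). The edgeR adjusted p was then 0.0328, and Il10 was the 1 gene called of the 8, where 0.568% of all genes were called. Without naive replicate 3 the log2 fold change was 1.49, with an edgeR adjusted p of 0.706, and 0 of the 8 genes were called (0.0372% of all genes). Genes with counts numbered 15820, 20254 and 13864 in naive replicates 1 to 3, and 19235 to 21354 in the allografts. At the level of Il10, few or no counts were uncommon in naive replicates 1 and 2 and more frequent in naive replicate 3. This covers genes of any kind, and the 12 ILC2 markers summed to 1160 CPM in naive replicate 2, against 12700 and 15200 in replicates 1 and 3. The share for replicate 2 therefore does not show how often genes expressed mainly by ILC2s had few or no counts there. Of 4369 genes with an allograft mean within 2-fold of that of Il10, 3.98% had at most 3 counts in naive replicate 1, 4.07% in replicate 2 and 15.2% in replicate 3. The whole pattern of Il10, with naive replicate 1 within 2-fold of the allografts and the other 2 naive libraries at the floor, was shared by 35 of these genes including Il10 itself (0.801%). The matching pattern with naive replicate 2 as the library that expressed the gene was seen for 19 genes, and that with naive replicate 3 for 3 genes.

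Set against Gata3 by length-scaled level (FPKM), Il10 stood at 0.0613 of the Gata3 level in naive replicate 1 and at 0.0829, 0.0630, 0.0979 and 0.0505 in allograft replicates 1 to 4. On this scale naive replicate 1 lay within the range of the allografts. Interleukin 10 is also made by B cells, plasma cells and dendritic cells, whose markers were therefore summed in the same libraries. The sum of 6 B cell genes was 117, 6.22 and 0 CPM in naive replicates 1 to 3, and 90 to 146 CPM in the allografts. For Cd79a, Ms4a1 and Cd22 every allograft lay above every naive library. Ms4a1, which encodes CD20, had 0 counts in the naive libraries and 13.6 to 34.1 CPM in the allografts. Pax5 and Cd79b overlapped, and Cd79b made up nearly all of the sum in naive replicate 1, at 117 CPM there, 1.41 and 0 CPM in the other naive libraries and 34.6 to 47.7 CPM in the allografts. For plasma cell genes the sums were 0, 16.9 and 0 CPM in these naive libraries, and 39.7 to 77.6 CPM in the allografts. Jchain and Mzb1 had 0 counts in the naive libraries. In the allografts Jchain was at 33.4 to 59.1 CPM (edgeR adjusted p 0.0278) and Mzb1 at 5.57 to 12.3 CPM (edgeR adjusted p 0.144). Sdc1, Tnfrsf17 and Derl3 overlapped between the groups, and Sdc1 made up nearly all of the sum in naive replicate 2, at 16.7 CPM. The sums of dendritic cell genes were 34, 19 and 116 CPM, and 87.7 to 120 CPM in the allografts. Of these, 6 of 6 were detected in every allograft and 2, 5 and 3 in naive replicates 1 to 3. Flt3, Clec9a and Zbtb46 had every allograft above every naive library, and the other dendritic cell genes overlapped. The T cell list gave 271, 27.8 and 543 CPM, and 601 to 747 CPM in the allografts, and 4 of its 9 genes had every allograft above every naive library. These were Cd3g (79, 6 and 124 CPM in naive, 175 to 219 CPM in allograft libraries), Trbc2 (182, 11 and 363 against 383 to 481 CPM), Trac (7.80, 5.06 and 10.6 against 12.5 to 19.6 CPM) and Cd28 (0, 3.10 and 1.03 against 18.3 to 20.6 CPM). Cd3d, Cd3e, Cd4, Cd8a and Cd5 overlapped between the groups, and Cd3e was at most 1.24 CPM in any library. The part of other cell types in the Il10 values was not tested.

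Among the 5 genes most like Il10 in profile were Knl1, Cenpi, Ccr3 and Chtf18. The measure was the root mean square difference in log2 CPM, centred per gene, over the 7 libraries and 9612 genes. The nearest was Knl1, a kinetochore scaffold, at a distance of 0.20, with 18.5, 0 and 0 CPM in naive replicates 1 to 3 and 17.2 to 27.5 CPM in the allografts. Cenpi, a centromere protein, followed at 0.23, with 10.6 CPM in naive replicate 1, 0 in the other naive libraries and 13.9 to 16 CPM in the allografts. Ccr3, the eotaxin receptor, was at 0.28. It had 9.39 CPM in naive replicate 1, 0 in naive replicates 2 and 3, and 15.9 to 24.6 CPM in the allografts. Chtf18, a clamp loader subunit in DNA replication, was at 0.33. The other 8 genes of the regulatory list lay farther from Il10, the nearest being Ebi3 at 2.94. The 5 genes were picked as the closest of 9612, so greater distances for 8 listed genes were largely set by that choice. The closest pair within the list was Prdm1 and Maf, at 0.53.

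**Figure D2:**
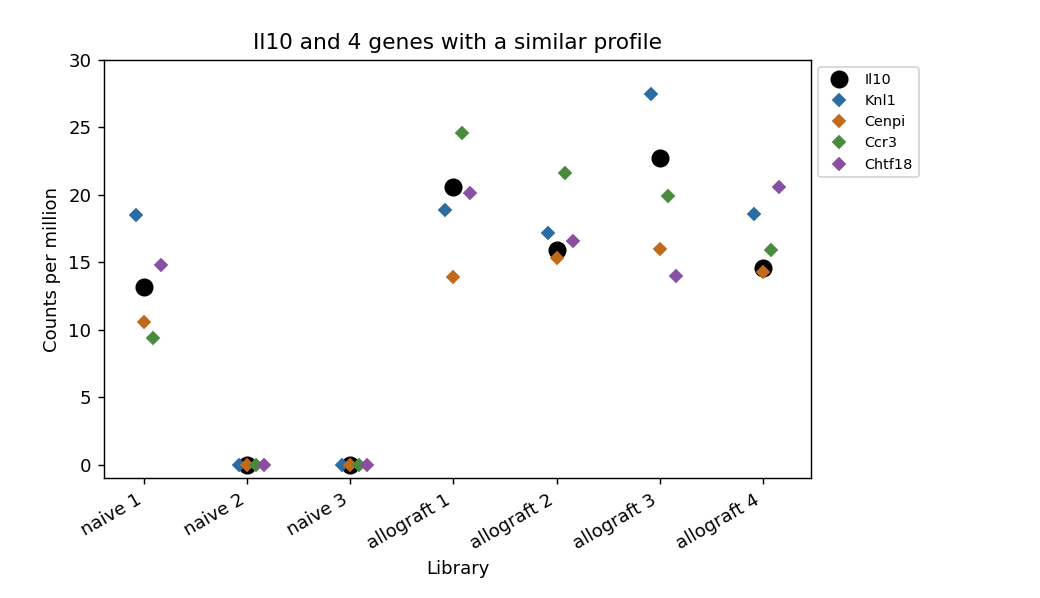
CPM (linear axis) of Il10 (black circles) and of 4 of the 5 genes with the most similar profile (coloured diamonds) in the 3 naive and 4 allograft libraries. All of these genes have counts in naive replicate 1 and in every allograft and a count of 0 in naive replicates 2 and 3.

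Ebi3 encodes the chain shared by interleukin 27 and interleukin 35 and lies on chr17:55952640-55957022, plus strand. It had the smallest p of the 9 genes, and for that reason its upstream sequence is shown here. The 250 bases before the RefSeq transcription start, chr17:55952373-55952622 on the plus strand of RefSeq GRCm38.p6, read as follows 5′ to 3′. The capitals mark a match to the NF-kappaB motif, searched as GGG, any 2 bases, then TTNCC.
Ebi3 promoter: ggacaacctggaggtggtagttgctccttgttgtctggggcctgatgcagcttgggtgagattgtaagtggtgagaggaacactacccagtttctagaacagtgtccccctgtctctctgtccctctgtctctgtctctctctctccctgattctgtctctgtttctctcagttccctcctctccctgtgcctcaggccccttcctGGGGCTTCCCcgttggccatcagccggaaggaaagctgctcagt
The match covers the bases from 44 to 35 before the RefSeq start, at position 55952623, which lies 17 bases before the GENCODE start given above. The same letters, on either strand, occur in 4.11% of 32851 promoter windows of this length. Promoter windows were not at hand for Il10 and Maf, so the promoters of these genes were not searched. They were at hand for the other 7 of the 9 genes. In these, neither the MAF motif TGCTGAC (3.81% of all promoters) nor the PRDM1 core AGNGAAAG (7.3% of all promoters) was found on either strand, and the NF-kappaB letters were found for Ebi3 alone. A match of letters is a description and not a bound site, and no match says only that these letters are not in this window.

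Ebi3 stood at 26.6, 8.99 and 8.44 CPM in naive replicates 1 to 3 and at 39.0, 36.5, 39.6 and 30.1 CPM in allograft replicates 1 to 4. All allografts lay above all naive libraries, although naive replicate 1 came within 1 allograft SD of the lowest. Its naive mean was 14.7 ± 10.3 CPM (SD, n = 3), against 36.3 ± 4.36 CPM (SD, n = 4) for the allografts. The log2 fold change was 1.16 (SE 0.480), with an unadjusted edgeR p of 0.0435 and an adjusted p of 0.462. Without naive replicate 2 the log2 fold change was 1.02 (edgeR adjusted p 0.324), and without naive replicate 1 it was 1.72 (edgeR adjusted p 0.110). Scaled to 6 ILC2 genes instead of all genes, the direction turned, with a log2 fold change of -1.09, a scaling that put the median of all genes at -2.25. Ebi3 shares 270 exon bases with the antisense gene Gm16712, which had 0 to 65 counts in naive and 46 to 214 in allograft libraries. Strand use in the counting was not given in the sources used here, so reads of this stretch cannot be told apart. Dendritic cells and B cells also make EBI3, and their part in these values, whose marker sums are given beside Il10, was not tested.

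The chains that pair with EBI3 were at or near 0. Il12a, which encodes the other chain of interleukin 35, had 0.0943 CPM in naive replicate 1 and 0 in the other naive libraries. In the allografts it had 1.09, 1.42, 0 and 0.515 CPM. Il27, whose product joins EBI3 to form interleukin 27, had 0 counts in all naive libraries and 0.386, 0, 0 and 0.447 CPM in the allografts. Allograft replicate 3, which had the highest Ebi3 level, had no count of either partner. On the receiving side, Il27ra, the specific receptor chain of interleukin 27, was at 73.8, 2.22 and 46.1 CPM in naive and 91.3 to 133 CPM in allograft libraries (log2 fold change 1.37, SE 0.843, edgeR adjusted p 0.692). Il6st, the shared chain gp130, was at 10.3, 22.5 and 0.780 CPM in naive and at 1.84 to 7.28 CPM in allograft libraries (log2 fold change -1.70, SE 1.15, edgeR adjusted p 0.727). Il12rb2, a chain of the interleukin 12 and interleukin 35 receptors, had 0 counts in the naive libraries and 0.250, 1.82, 3.74 and 1.86 CPM in the allografts. That level was at least 30.1-fold higher (floor of 3 counts per library, averaged over the naive libraries), with an adjusted p of 0.169 in edgeR and 0.000227 in DESeq2. Of the 5 tested genes among 6 partners and receptors of EBI3, 0 passed in edgeR, and 4 had higher and 1 a lower value in allografts.

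Tgfb1 encodes transforming growth factor beta 1, made as a latent protein that must be released from its carrier, and lies on chr7:25687002-25705077, plus strand. It stood at 7.07, 0.879 and 11.1 CPM in naive replicates 1 to 3 and at 9.47, 16.7, 8.13 and 15.4 CPM in the allografts. The groups overlapped, since naive replicate 3 lay above 2 of the allografts. The log2 fold change was 0.90 (SE 0.854, edgeR adjusted p 0.820), and 0.39 (adjusted p 0.777) without naive replicate 2, the library with the lowest level.

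Of the genes named here from the release machinery of latent TGF-beta, 1 had every allograft above every naive library. This held for 12.5% of all tested genes. Nrros, a carrier of latent TGF-beta 1 on myeloid cells, was at 61.3, 13.7 and 46.7 CPM in naive and at 167, 81.1, 134 and 127 CPM in allograft libraries. Its log2 fold change was 1.56 (SE 0.466), with an adjusted p of 0.295 in edgeR and 0.0353 in DESeq2. The sum of 8 myeloid genes was 2.49, 295 and 466 CPM in naive replicates 1 to 3, and 154 to 234 CPM in the allografts, with no such separation of the groups, and their part in the Nrros values was not tested. Lrrc32, the carrier on regulatory T cells, had counts in naive replicate 2 alone among the naive libraries (11.8 CPM) and 0 to 2.47 CPM in the allografts. Itgb8, a chain of the integrin that frees TGF-beta, was seen in naive replicate 2 alone, at 12.9 CPM. The receptor genes Tgfbr1 and Tgfbr2 had log2 fold changes of -1.12 (edgeR adjusted p 0.760) and 0.16 (edgeR adjusted p 0.948). Tgfbr2 was steady outside naive replicate 2, at 77.8 and 94.4 CPM in naive replicates 1 and 3 and at 71.9 to 83.0 CPM in the allografts, against 23.8 CPM in replicate 2. Of 23 genes of TGF-beta production and signalling, 21 were tested and 0 passed in edgeR. Of these, 9 had higher and 12 lower values in allografts, with a median log2 fold change of -0.91. Beside Nrros, Tgfb3 and Smad3 also had every allograft above every naive library. For Smurf2 every allograft lay below, as for 2.15% of all tested genes. Tgfb3, Smad3 and Smurf2 were named after their values were seen.

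Entpd1 encodes CD39, which removes phosphates from extracellular ATP and ADP, and lies on chr19:40612366-40741602, plus strand. It had 0 counts in naive replicate 1, 11.3 and 11.5 CPM in naive replicates 2 and 3, and 6.34, 6.05, 2.03 and 3.47 CPM in the allografts. The allografts fell between the naive extremes. Its log2 fold change was -1.11 (SE 1.68, edgeR adjusted p 0.909), and -0.44 without naive replicate 2 (adjusted p 0.937). Of 3425 genes with a like allograft level, 27.2% were at the floor in naive replicate 1. CD39 is also carried by myeloid and endothelial cells. Naive replicate 1, without Entpd1, had the lowest sum of the 8 myeloid genes, 2.49 CPM, against 295 and 466 CPM in the other naive libraries. For 6 endothelial genes the sum was 22, 413 and 8.26 CPM in the naive libraries, and 33.3 to 46.1 CPM in the allografts. The part of these cells in the Entpd1 values was not tested.

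Nt5e encodes CD73, which turns AMP into adenosine, and lies on chr9:88327197-88372092, plus strand. It stood at 7.92, 9.19 and 75.5 CPM in naive replicates 1 to 3 and at 35.3, 35.6, 32.4 and 34.7 CPM in the allografts. The allografts were nearly alike, with a coefficient of variation of 4.27%, while naive replicate 3 lay far above and the other naive libraries far below them. Of 4322 genes with a like allograft level, 1.04% varied less among the allografts, and the median of their coefficients was 20.7%. On the log2 scale the fold change was 0.04 (SE 0.757, edgeR adjusted p 0.996). Its sign followed the naive libraries used: it was -0.34 without naive replicate 2 (edgeR adjusted p 0.866), -0.42 without replicate 1 (edgeR adjusted p 0.762) and 1.69 without replicate 3 (SE 0.366, edgeR adjusted p 0.143). It also turned to -0.12 with DESeq2 size factors. In FPKM, Nt5e stood at 0.528 and 4.26 times the level of Entpd1 in naive replicates 2 and 3 and at 3.62, 3.83, 10.4 and 6.53 times in the allografts.

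Adenosine is sensed by the receptors ADORA2A and ADORA2B and is broken down by adenosine deaminase. Adora2a was at 8.79, 0 and 33.6 CPM in naive and 17.6 to 25.1 CPM in allograft libraries (log2 fold change 0.51, SE 1.55, edgeR adjusted p 0.966). Adora2b was at 0, 6.46 and 22.5 CPM in naive and 2.44 to 4.80 CPM in allograft libraries (log2 fold change -1.60, SE 1.69, edgeR adjusted p 0.843). Ada, the deaminase, was at 40.2, 10.4 and 52.8 CPM in naive and at 38.8 to 51.9 CPM in allograft libraries (log2 fold change 0.26, edgeR adjusted p 0.930). Cd38, an enzyme of a second route towards adenosine, was at 38.2, 31.9 and 4.54 CPM in naive and at 7.56 to 25.9 CPM in allograft libraries (log2 fold change -0.93, edgeR adjusted p 0.790). Slc28a2, a nucleoside importer, had 0 counts in the naive libraries and 2.04, 0.309, 6.00 and 2.65 CPM in the allografts, which was at least 43.1-fold higher on the floor used for Il12rb2. Its adjusted p was 0.172 in edgeR and 7.1e-05 in DESeq2. Of 20 genes of nucleotide and adenosine handling other than Entpd1 and Nt5e, 16 were tested and 0 passed in edgeR, with 8 higher, 8 lower and a median log2 fold change of -0.28.

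Prdm1 encodes the repressor BLIMP-1 and lies on chr10:44437177-44528501, minus strand. It stood at 26.6, 4.75 and 37.6 CPM in naive replicates 1 to 3 and at 34.6, 26, 43.6 and 31.1 CPM in the allografts. Naive replicates 1 and 3 both lay within the range of the allografts, and naive replicate 2 lay below it. Its fold change on the log2 scale was 0.48 (SE 0.589, edgeR adjusted p 0.872), and 0.03 (adjusted p 0.982) without naive replicate 2.

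Maf encodes c-MAF, a basic leucine zipper factor that is also known to act on Il4, and lies on chr8:115682942-115707794, minus strand. It stood at 189, 19.7 and 92.5 CPM in naive replicates 1 to 3 and at 95, 116, 112 and 154 CPM in the allografts. Naive replicate 1 was the highest of all 7 libraries and naive replicate 2 the lowest. The log2 fold change was 0.19 (SE 0.570, edgeR adjusted p 0.965). Without naive replicate 2 it turned to -0.28 (edgeR adjusted p 0.723). In the 2 naive libraries without Il10, Maf was thus at 19.7 and 92.5 CPM and Prdm1 at 4.75 and 37.6 CPM.

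Id3 encodes an inhibitor of E-protein factors and lies on chr4:136143497-136145755, plus strand. It stood at 2.47, 264 and 0 CPM in naive replicates 1 to 3 and at 13.5, 11.2, 13.6 and 9.55 CPM in the allografts. Naive replicate 2 held nearly all of the naive signal, and the other naive libraries lay below every allograft. With all libraries the log2 fold change was -3.46 (SE 2.07, edgeR adjusted p 0.677). Without naive replicate 2 the direction turned to 3.25 (SE 1.84, edgeR adjusted p 0.355), and Id3 joined Il10 and Ebi3 as a gene with every allograft above every remaining naive library, where 21.6% of all tested genes were. In the same library the kidney tubule genes summed to 10500 CPM and the endothelial genes to 413 CPM, and their part in the Id3 value was not tested. The related Id1 followed Id3 in this library, at 8.69, 145 and 24.9 CPM in naive and 8.38 to 13.5 CPM in allograft libraries. Its log2 fold change was -3.04 (SE 0.985), with an adjusted p of 0.341 in edgeR and 0.0274 in DESeq2, and was -0.78 (edgeR adjusted p 0.504) without naive replicate 2. Id2, which ILC2s need for their development, was at 5510, 977 and 7570 CPM in naive and 4340 to 5450 CPM in allograft libraries. In FPKM, Id3 stood at 0.00299 to 0.00373 of Id2 in the allografts and at 0.000607, 0.367 and 0 of it in naive replicates 1 to 3. Of 6 other Id and E-protein genes 0 passed in edgeR, with 1 higher and 5 lower.

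Foxp3, on chrX:7573644-7595245, plus strand, had 0 counts in all naive libraries. In the allografts it had 0, 10, 0 and 4 counts, or 0.309 CPM in replicate 2 and 0.137 CPM in replicate 4. It shares 853 exon bases with Flicr on the same strand, and Flicr had 11 to 90 counts in each allograft, 35 and 15 in naive replicates 1 and 3 and 0 in naive replicate 2. On the other strand it shares 590 exon bases with Ccdc22, 373 with Gm36995 and 266 with Ppp1r3f. Gm36995 had 42, 359, 72 and 392 counts in allograft replicates 1 to 4 and 94, 50 and 0 in naive replicates 1 to 3. With strand use not given, reads of these stretches cannot be told apart. Foxp3 reached the filter in no group and was not tested, and no fold is given. Of 9 other genes typical of regulatory T cells, 7 were tested and 0 passed in edgeR, with 4 higher, 3 lower and a median log2 fold change of 0.20. The smallest p belonged to Ikzf2, which encodes HELIOS, at 59.8, 7.74 and 73.8 CPM in naive and 50.1 to 109 CPM in allograft libraries (log2 fold change 0.82, SE 0.628, edgeR adjusted p 0.760). Ctla4, named here after its values were seen, had the same pattern as Il10. It stood at 201, 0 and 0 CPM in naive and at 194 to 218 CPM in allograft libraries, with an edgeR adjusted p of 0.898. Without naive replicate 1 it was at least 3050-fold higher on the same kind of floor, with an edgeR adjusted p of 0.0203.

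**Figure D3:**
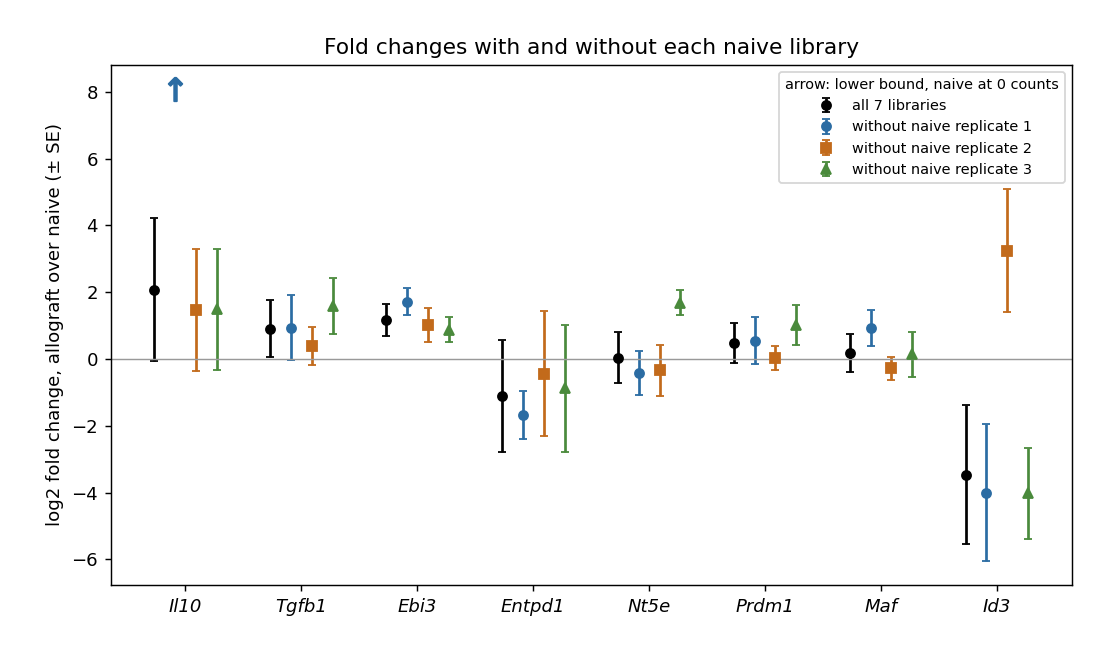
Log2 fold change, allograft over naive, of the 8 tested genes with all 7 libraries and with each naive library left out; bars are standard errors and the arrow is the lower bound for Il10 where the naive libraries have 0 counts. Id3 lies at -3.46 with all libraries and at 3.25 without naive replicate 2, while Ebi3 and Tgfb1 stay above 0 in all of these fits (Ebi3 turned to -1.09 when scaled to ILC2 genes).

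Levels were compared between genes per length, in FPKM. In the allografts Ebi3 was the highest of the 9 genes, at 22.6 to 29.9 FPKM. Maf (9.88 to 16.2 FPKM) and Il10 (9.63 to 15.1 FPKM) came next, and their ranges overlapped. Prdm1 (4.03 to 6.78 FPKM) and Id3 (4.61 to 6.58 FPKM) overlapped as well. Below them, with no overlap between neighbours, came Nt5e at 3.26 to 3.58, Tgfb1 at 1.39 to 2.85, Entpd1 at 0.315 to 0.974 and Foxp3 at 0 to 0.0560 FPKM. The naive libraries had no common order. Ebi3 (20.2 FPKM) and Maf (20.0 FPKM) led in naive replicate 1, Id3 (135 FPKM) in replicate 2 and Maf (9.90 FPKM) in replicate 3. In naive replicate 3, Nt5e was second at 7.76 FPKM.

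Interleukin 10 is received through a pair of receptor chains that signal by STAT3. Il10ra, the ligand-binding chain, was at 9.95, 7.47 and 389 CPM in naive and at 105, 135, 107 and 119 CPM in allograft libraries. Naive replicate 3 stood above and the others below every allograft, and the log2 fold change was -0.29 (SE 1.18, edgeR adjusted p 0.975). Without naive replicate 3 it was 3.48, with an edgeR adjusted p of 0.0479. Il10rb, the shared second chain, was at 24.4, 41.5 and 97.4 CPM in naive and 35.4 to 55.1 CPM in allograft libraries (log2 fold change -0.46, SE 0.486, edgeR adjusted p 0.844). Socs3, a feedback inhibitor induced through STAT3, was at 34.3, 40.4 and 52.9 CPM in naive and at 25.2, 26.1, 20.1 and 18.3 CPM in allograft libraries, with no overlap. Its log2 fold change was -1.15 (SE 0.364), with an adjusted p of 0.332 in edgeR and 0.0135 in DESeq2. Nfil3, a factor that interleukin 10 induces and that also acts on Il10, was at 248, 25.1 and 122 CPM in naive and 257 to 344 CPM in allograft libraries (log2 fold change 1.06, SE 0.583, edgeR adjusted p 0.642). Of 9 genes of interleukin 10 reception, 6 were higher and 3 lower, 0 passed in edgeR, and the median log2 fold change was 0.46. Of the other family ligands Il19, Il20, Il22 and Il24, Il22 was the 1 tested. It had 7.50, 0 and 0 CPM in naive and 5.11, 3.55, 0 and 2.85 CPM in allograft libraries.

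Among 10 other transcription factors known to act on Il10, 7 were higher, 3 lower and 0 passed in edgeR. Irf4, which works with BATF on Il10 and on effector cytokines, was at 3.17, 1.16 and 0 CPM in naive and at 45.5, 56.8, 41.5 and 55.8 CPM in allograft libraries. The groups did not overlap, with a log2 fold change of 4.93 (SE 1.5) and an adjusted p of 0.306 in edgeR and 0.00593 in DESeq2. IRF4 is also made by B cells, plasma cells and dendritic cells, whose sums are given beside Il10, and their part was not tested. Batf was at 134, 1.71 and 129 CPM in naive and at 195 to 263 CPM in allograft libraries (log2 fold change 1.33, SE 1.01, edgeR adjusted p 0.760), and its log2 fold change without naive replicate 2 was 0.74 (edgeR adjusted p 0.130). Receptors of signals known to act on interleukin 10 in ILC2s numbered 12, of which 9 were higher, 3 lower and 0 passed in edgeR, with a median log2 fold change of 0.39. Without naive replicate 2 the lean turned, with 5 higher, 7 lower and a median of -0.14.

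Of the 92 different genes in these 9 lists, 80 were tested. edgeR called 0, with or without naive replicate 2, and 10 had an unadjusted p under 0.05 (12.5%, where the share of all genes was 10.3%). DESeq2 called 10 of the 66 for which it gave an adjusted p (15.2%, where 6.66% of all genes were called), 5 higher and 5 lower. Beside Socs3, Nrros, Il12rb2, Slc28a2, Irf4 and Id1 these were Tgfbr3, Smad2, Smad3 and Adk, named here after their values were seen. Without naive replicate 1, edgeR called Ctla4 and Panx1, an ATP channel also named after its values were seen (log2 fold change 3.16, edgeR adjusted p 0.0458), and without naive replicate 3 it called Il10ra. List medians, to be read against -0.01 for all genes, moved without naive replicate 2, where all genes had a median of 0.23. The median was then -0.18 for TGF-beta, 0.36 for adenosine handling, -0.01 for interleukin 10 reception, 2.34 for the EBI3 partners, 0.19 for the other transcription factors, -0.34 for the Id and E proteins and 1.01 for the regulatory T cell genes. With all libraries the EBI3 partners stood at 1.37, the transcription factors at 0.53 and the Id and E proteins at -0.50. The EBI3 medians do not cover the same genes, so they are not a measure of this library's effect. With all libraries 5 of these genes were tested, and without naive replicate 2 Il27 also passed the filter, which made 6. Smad3, which carries the TGF-beta signal to the nucleus, was higher, with an adjusted p of 0.333 in edgeR and 0.0409 in DESeq2. Its relative Smad2 was lower, with an adjusted p of 0.332 in edgeR and 0.00609 in DESeq2. The Smad2 groups overlapped, at 23.9 to 83.1 CPM in naive and 16.4 to 31.1 CPM in allograft libraries.

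**Figure D4:**
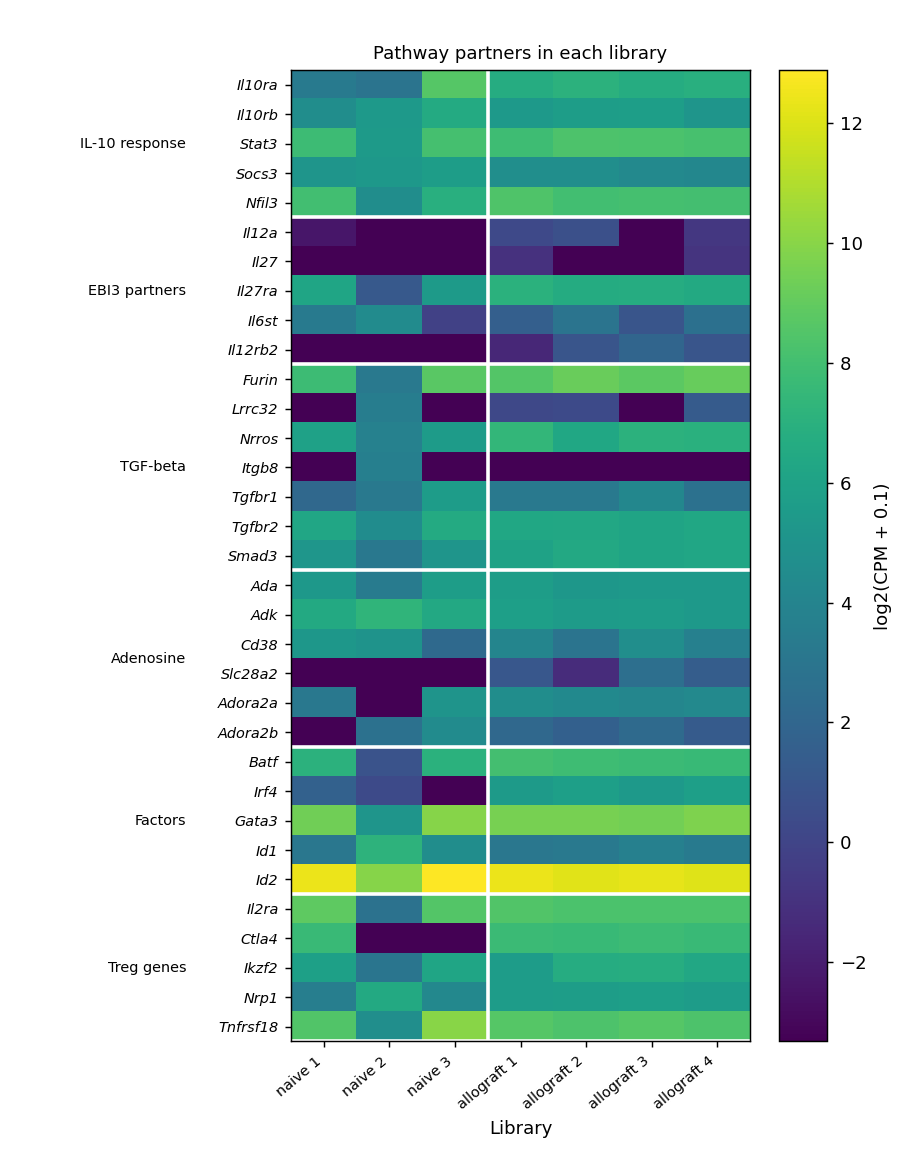
Heat map of log2(CPM + 0.1) of partner genes (rows, by pathway) in the 3 naive and 4 allograft libraries (columns). Irf4 is at 3.17 CPM or less in the naive libraries and at 41.5 CPM or more in the allografts, and Ctla4 has 0 counts in naive replicates 2 and 3.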

How the data were processed

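RNA was measured in 7 pools of sorted cardiac ILC2s. Per the labels' protocols, full-length cDNA was amplified from column-purified RNA. The authors deposited 1 table of whole-number counts per gene and 1 of FPKM (fragments per length and depth). The submitters' processing notes name FastQC 0.11.5, STAR 2.5.3a, StringTie 1.3.1c, DESeq2 1.16.1 and the build mm10, and strand use is not given in the sources used here. Over 7340 well-counted genes the 2 tables carried the same measurement, with an SD of their log2 ratio of at most 0.00352. FPKM served only to compare levels between genes. Positions are those of GENCODE M21.

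Counts were tested with edgeR 4.0.16 (R 4.3.3; quasi-likelihood fit, TMM, filterByExpr, Benjamini-Hochberg at 0.05) over all 7 libraries without covariates. CPM is the share of the deposited total count. Standard errors come from the F value. The fit was tested on simulated data with known changes and the same dispersion for all genes and libraries of a run. It therefore does not show how the fit behaves with naive libraries as uneven as these. Alternatives were DESeq2 1.42.0, its size factors in edgeR, limma 3.58.1 (voom with quality weights), other low-count filters, scaling to 6 ILC2 genes, a replicate block, and each library left out. The genes named were the 9 members, of each list the genes past the threshold or else the smallest p, 17 direct partners, and the 5 genes nearest to Il10 among those with an average log2 CPM of at least 3 (prior count 2), of which 1 is not reported here. The members and lists were chosen with earlier results of these data known.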

Additional observations from a re-analysis of the deposited data

How the results depend on the processing

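The count of regulatory genes called was 0 in every alternative but 1: leaving out each library in turn gave 0 to 1, with Il10 called without naive replicate 1. The number of all genes called moved more. It was 6 in edgeR, 1012 with DESeq2, 1 with limma, 4 with DESeq2 size factors or with no low-count filter, and 0 with the replicate block or with scaling to ILC2 genes (252 and 3955 at an unadjusted p under 0.05). Leaving out each library gave 0 to 560: naive replicates 1, 2 and 3 left out in turn gave 107, 560 and 7, and any single allograft gave 0 (848 to 1074 at an unadjusted p under 0.05). The median log2 fold change of all genes was -2.25 with ILC2 scaling, 0.66 with limma, 0.55 with the block, 0.23 without naive replicate 2 and -0.20 with DESeq2 size factors, so directions below are relative to these. Under ILC2 scaling, the log2 fold change turned to -1.09 for Ebi3, -1.37 for Nt5e, -0.67 for Prdm1 and -1.02 for Maf. With limma it turned to 4.20 for Entpd1 and 2.09 for Id3. Nt5e turned to -0.12 with DESeq2 size factors and -0.12 with DESeq2. With each library left out in turn, Nt5e ranged from -0.42 to 1.69 (-0.34 without naive replicate 2 and -0.01 without allograft replicate 1). Maf ranged from -0.28 to 0.93 and Id3 from -4.02 to 3.25, both turning without naive replicate 2. With the replicate block, Id3 turned to 2.41. The cause was not tested. Il10 was higher in allografts in all 13 alternatives that gave it a p (adjusted p 0.0328 to 1) and Tgfb1 in all 14 (adjusted p 0.38 to 1). DESeq2 gave no p for Il10 and Id3. Replicate numbers did not pair the libraries: deviations of same-numbered libraries correlated at 0.0167, -0.0181 and 0.0368, and naive replicate 1 correlated best with allograft replicate 3 (0.0643). Foxp3, with at most 10 counts, was too shallow to compare.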

Other observations

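Ski, which encodes a repressor of TGF-beta signalling, was chosen after its values were seen. It stood at 67.8, 36.4 and 148 CPM in naive replicates 1 to 3 and at 1.39, 0.216, 83.1 and 3.40 CPM in allograft replicates 1 to 4. Allograft replicate 3 lay within the naive range and the other 3 allografts far below it, and the edgeR adjusted p was 0.770.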
